A study of Mus musculus with 5 samples.

Results

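The hippocampus of mice 8 h after kainic acid seizures was compared with that of untreated mice, using the library titled Kinate 8h and the library titled Untreated Control. These are 2 of the 5 libraries of the series and were picked by their titles. The 8 h library comes from 3 month old male C57/bl6 mice injected intraperitoneally with kainic acid at 20 mg/kg in PBS and killed 8 h after seizures began. The control library comes from untreated mice of the same strain, sex and age. The treatment text shared by all labels also names SL327, but the label of neither library says that it was given. Per the study's methods, kainic acid mice were kept only if they reached seizures with continuous rearing and falling. A 1 h library and a pair of 4 h libraries (replicates 1 and 2) from kainic acid mice place each gene in time. Whether the RNA of a library came from one animal or several is not stated. No vehicle-injected or time-matched library is in the series, so the injection, the handling and the clock time of sampling cannot be told apart from the seizures.

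Kainic acid activates a class of ionotropic glutamate receptors that is abundant in the hippocampus, and its injection provokes limbic seizures. The neuronal discharge switches on immediate early genes, many of which encode transcription factors, and later genes for secreted and synaptic proteins. In the same tissue astrocytes take on a reactive state, in which they make more intermediate filament protein.

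The control library has 19100374 counts on genes and the 8 h library 16612225, so that 3 counts are 0.151 and 0.171 CPM. CPM are counts scaled to a common library size after TMM normalization, which also corrects for composition. A fold is the ratio of these levels, with counts under 3 set to a floor of 3, and log2 folds are on the same scale. The 95% intervals beside folds are exact binomial and cover counting error only, since reads are not independent molecules and there is 1 library on each side. No fold between the 8 h and control libraries has a replicate check. "Raised" and "lowered" below mean at least 2-fold above or below the control library, among the 13770 genes with at least 50 counts in one of these libraries.

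At 8 h, 331 genes were raised (2.4% of the 13770) and 212 were lowered (1.54%). Together they make 543 genes (3.94%), of which 416 code for proteins. Between replicates 1 and 2 at 4 h, which received the same treatment, 681 of the same 13770 genes (4.95%) were at least 2-fold apart. The SD of the log2 ratio was 0.54 for that pair and 0.47 for 8 h over control. The replicates thus differ in more genes than the 8 h and control libraries do. Among genes under 200 counts, 8.7% were at least 2-fold apart from the control at 8 h and 11.5% within the pair. At 2000 counts or more these shares were 1.63% and 0.904%, the only band in which the 8 h share was the higher one. Of the raised genes, 295 of 331 had a log2 fold larger in size than their own log2 ratio in the pair, and of the lowered genes 203 of 212. These genes were picked for a large fold at 8 h, so that count is largely set by the choice. At least 4-fold differences were found for 56 raised and 15 lowered genes, and at least 8-fold ones for 26 and 7.

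**Figure D1:**
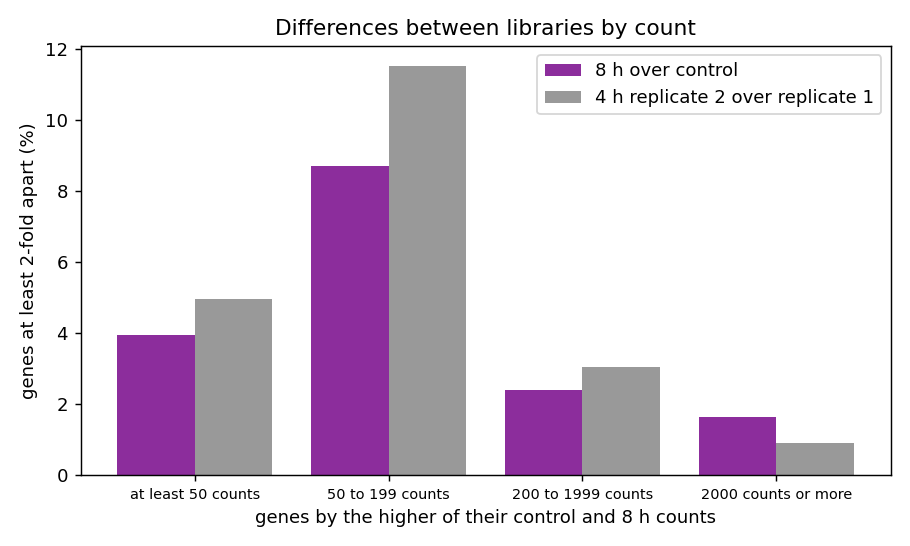
Percentage of genes at least 2-fold apart between 8 h and control, and between replicates 1 and 2 at 4 h, for all 13770 genes and by the higher count of control and 8 h. The pair differs in the larger share of genes except at 2000 counts or more, where the shares are 0.904% for the pair and 1.63% for 8 h.

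A test across all 5 libraries had only the 4 h pair to measure spread (1 residual degree of freedom), and the control and 8 h libraries were assumed to vary like that pair. With edgeR's quasi-likelihood test and Benjamini-Hochberg adjustment, 0 of 19768 genes had an adjusted p under 0.05 for 8 h against control, and 892 had an unadjusted p under 0.05. DESeq2 called 33 genes (30 higher and 3 lower at 8 h) and limma-voom called 0. The 3 lower genes were Dbp, Npy2r and Hap1.

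The raised genes fall into 4 groups by their earlier course. At all times, that is also at 1 h and in both 4 h libraries, 47 genes were raised. Another 93 were raised from 4 h on, being under 2-fold at 1 h. Newly raised at 8 h, under 2-fold in all 3 earlier kainic acid libraries, were 116 genes, and 75 had other courses. These groups are defined by the folds themselves and all share the control library, so their separation is not a finding. Of the lowered genes, 27 had been lowered since 4 h or earlier, 128 were newly lowered and 57 had other courses. The 27 become between 49 and 59 when either replicate at 4 h is left out. The counts also move with the minimum: with at least 20 or 200 counts, 693 or 138 genes were raised and 381 or 87 lowered. With a limit of 1.5-fold instead of 2-fold at the earlier times, 75 genes were newly raised and 55 newly lowered.

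**Figure D2:**
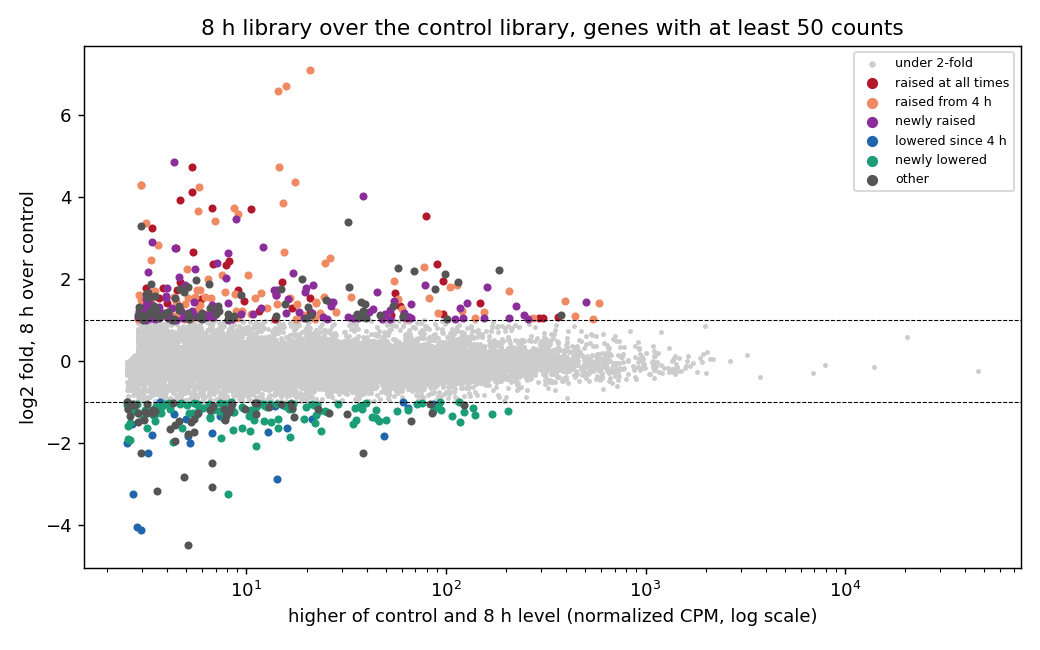
Log2 fold of the 8 h over the control library against the higher of both levels in normalized CPM (log axis), for 13770 genes, with colors for the course before 8 h and dashed lines at 2-fold. The 56 genes raised at least 4-fold and the 15 lowered at least 4-fold lie mostly below the middle of the range of levels.

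Most genes raised at all times stood lower at 8 h than at 4 h. The median log2 fold of the 47 genes was 1.86 at 1 h, 3.25 and 2.003 in the 4 h pair and 1.54 at 8 h. In 31 of the 47 the 8 h level lay below both 4 h libraries, and in 2 it lay above all earlier ones. Nptx2, a secreted pentraxin that clusters glutamate receptors at excitatory synapses, stood at 17.3 CPM in the control, 198 at 1 h, 721 and 402 in the 4 h pair and 89.9 at 8 h. The 8 h library was 5.20-fold (95% interval 4.63 to 5.86) above the control but below all earlier kainic acid libraries. Pcdh8, a protocadherin whose induction by activity is well known, had 25.0 CPM in the control, 299 at 1 h, 438 and 316 in the 4 h pair and 96.4 at 8 h. It was highest in the 4 h pair and at 8 h was still 3.85-fold (95% interval 3.48 to 4.27) above the control.

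Inhba encodes the subunit that forms activin A. Its level was 6.78 CPM in the control, 36.1 at 1 h, 1044 and 402 in the 4 h pair and 79.5 at 8 h, so 8 h fell between the 1 h and 4 h libraries, 11.7-fold (95% interval 9.81 to 14.1) above the control. Tnfrsf12a, the receptor for the cytokine TWEAK, had 1.51 CPM in the control, 6.88 at 1 h, 12.9 and 6.61 in the 4 h pair and 8.21 at 8 h. The 8 h library lay within the range of the 4 h pair and 5.45-fold (95% interval 3.66 to 8.37) above the control. For Lif, a cytokine of the interleukin 6 family, the level was 0.502 CPM in the control, 1.14 at 1 h, 4.69 and 1.06 in the 4 h pair and 6.73 at 8 h. This was the highest of all libraries, 13.4-fold (95% interval 7.03 to 28.7) above the control, on 10 control counts, while the 4 h pair differed by more than 4-fold. Ctla2a, related to the propeptide of cysteine proteases, had 0.804 CPM in the control, 4.61 at 1 h, 12.2 and 4.71 in the 4 h pair and 10.5 at 8 h, with 8 h inside the range of the pair and 13.1-fold (95% interval 7.83 to 23.3) above the control. Exons of other genes cover 16.3% of the Ctla2a exons on the same strand, and reads may be lost or shared between Ctla2a and related genes. For Pcdh8, exons of the opposite strand cover 9.61%.

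Of the genes at least 4-fold above the control at 1 h with at least 50 counts there, few were still so at 8 h. Among these 126 genes, 11 were at least 4-fold, 28 were 2- to 4-fold and 87 under 2-fold above the control at 8 h. Of the 85 genes at least 4-fold above the control in both 4 h libraries, 20 were still at least 4-fold, 37 were 2- to 4-fold and 28 under 2-fold. Both sets were picked by their early level, so a lower later level is in part set by the choice.

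The list of immediate early transcription factors had 23 members at the count minimum. At 8 h, 5 were raised (Atf3, Klf10, Fosb, Csrnp1 and Ier5) and 1 was lowered (Nr4a2), where the shares over all genes are 2.4% and 1.54%. For Fosb and Nr4a2 the log2 fold was smaller in size than the log2 ratio of the 4 h pair, and for the others it was larger. Ier5 was close to the limit, at 2.06-fold. Atf3 had 78 counts at 8 h and 13 in the control, so it met the minimum only at 8 h and had to lie above the control. The median log2 fold of the list was 0.33, beside -0.02 over all genes. Fos had 10.8 CPM in the control, 999 at 1 h, 519 and 70.4 in the 4 h pair and 17.2 at 8 h. Its level at 8 h was 1.59-fold (95% interval 1.33 to 1.91) above the control and far under the 1 h library. Npas4, a factor specific to neurons, had 3.92 CPM in the control, 694 at 1 h, 130 and 4.92 in the 4 h pair and 5.13 at 8 h. In replicate 2 at 4 h and at 8 h it was already close to the control, while replicate 1 was high. Atf3, a stress-responsive factor of the ATF family, had 0.653 CPM in the control, 110.3 at 1 h, 142 and 54.4 in the 4 h pair and 4.45 at 8 h, and was the list's highest at 8 h in fold, 6.81-fold (95% interval 3.76 to 13.4) above the control. Klf10, a zinc finger factor induced by transforming growth factor beta, took another course, with 31.6 CPM in the control, 33.8 at 1 h, 76.5 and 99.0 in the 4 h pair and 114 at 8 h. It was flat at 1 h and highest at 8 h, 3.61-fold (95% interval 3.30 to 3.96) above the control. Nr4a2, an orphan nuclear receptor, had 49.9 CPM in the control, 424 at 1 h, 258 and 60.9 in the 4 h pair and 18.3 at 8 h, so that the 8 h library was the lowest of all, 2.73-fold (95% interval 2.40 to 3.10) below the control.

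The list of activity-regulated synaptic effectors held 24 measured genes, of which 10 were raised (2.4% over all genes) and 1 was lowered (1.54% over all genes), with a median log2 fold of 0.74. Besides Nptx2 and Pcdh8, the raised ones were Pim1, Gadd45b, Gem, Ptgs2, Nrn1, Rgs4, Rem2 and Gadd45g. For Pim1, Gem, Ptgs2 and Gadd45g the log2 fold was smaller in size than the log2 ratio of the 4 h pair. For the other raised genes it was larger. Nrn1, Rgs4, Rem2 and Gadd45g were close to the limit, at 2.07-, 2.07-, 2.04- and 2.03-fold. Pim1 had 27 counts in the control and 79 at 8 h, and Gem 26 and 59. Both met the count minimum only at 8 h and had to lie above the control. Ptgs2, the inducible cyclooxygenase, had 23.2 CPM in the control, 442 at 1 h, 672 and 244 in the 4 h pair and 58.6 at 8 h. The level at 8 h was 2.53-fold (95% interval 2.27 to 2.83) above the control and under all earlier kainic acid libraries. Arc, a postsynaptic protein that controls the removal of AMPA receptors, had 148 CPM in the control, 2022 at 1 h, 2593 and 928 in the 4 h pair and 152 at 8 h. It was high at 1 and 4 h and at the control level at 8 h. Rasd1, a small GTPase, had 16.3 CPM in the control, 27.9 at 1 h, 33.9 and 36.0 in the 4 h pair and 7.30 at 8 h, being above the control at 1 and 4 h and 2.24-fold (95% interval 1.82 to 2.77) below it at 8 h.

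**Figure D3:**
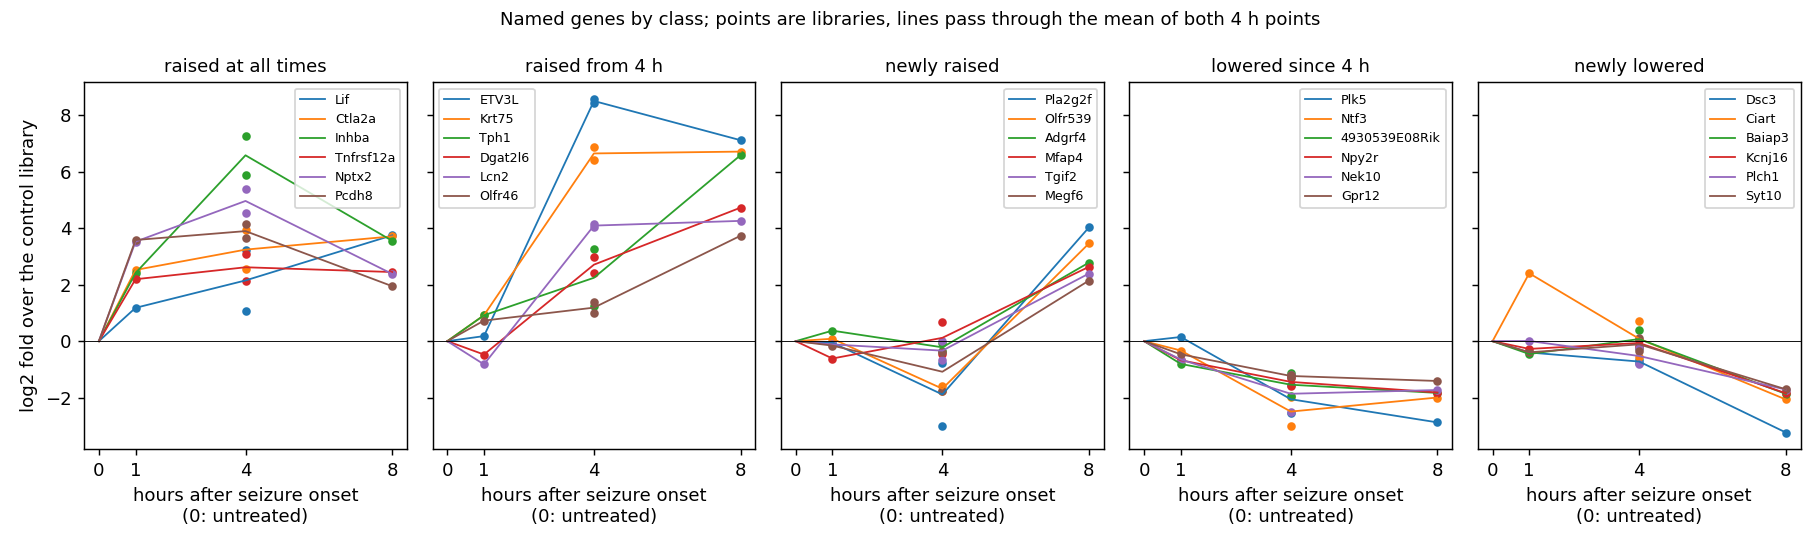
Log2 fold over the control for the genes named by size in each class, at 1, 4 and 8 h; points are libraries and lines pass through the mean of both points at 4 h. Genes such as Nptx2 and Inhba peak at 4 h, Pla2g2f and Adgrf4 are at least 2-fold above the control at 8 h and not earlier, and Plk5 and Npy2r are at least 2-fold below it from 4 h.

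Genes raised from 4 h had median log2 folds of 0.41 at 1 h, 2.01 and 1.56 in the 4 h pair and 1.52 at 8 h over the 93 genes. For 31 of them the 8 h level was above every earlier library and for 42 it was below both 4 h libraries. ETV3L, as the files name an ETS family factor, had 1 count in the control, 2 at 1 h, 963 and 982 in the 4 h pair and 365 at 8 h. It was all but undetected in the control and at 1 h and present in the later libraries, with a ratio of 8 h to control of 414 (95% interval 73.9 to 16410) without the floor and a fold of 138 with it. Krt75, a type II keratin, had 0 counts in the control, 5 at 1 h, 297 and 243 in the 4 h pair and 276 at 8 h. With 0 counts in the control it was at least 104.5-fold higher at 8 h against the floor of 3 control counts. That bound takes the counts as they are, and with counting error its lower 95% limit is 84.4. Its levels at 4 and 8 h were alike.

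Tph1, the enzyme that starts serotonin synthesis outside the brain, had 3 counts in the control, 5 at 1 h, 6 and 27 in the 4 h pair and 253 at 8 h. Its ratio of 8 h to control was 95.8 (95% interval 32.4 to 467), and 8 h lay well above both 4 h libraries. Dgat2l6, related to diacylglycerol acyltransferases, had 0.553 CPM in the control, 0.398 at 1 h, 4.39 and 2.96 in the 4 h pair and 14.6 at 8 h. It was highest at 8 h, 26.4-fold (95% interval 14.5 to 53.6) above the control. Lcn2, a secreted protein that binds bacterial siderophores and is made by reactive astrocytes, had 0.301 CPM in the control, 0.114 at 1 h, 4.93 and 5.34 in the 4 h pair and 5.76 at 8 h. The later 3 libraries were alike, and the 8 h library was 19.1-fold (95% interval 8.48 to 53.3) above the control, on 6 control counts. Olfr46, an odorant receptor gene, had 0.653 CPM in the control, 1.08 at 1 h, 1.31 and 1.69 in the 4 h pair and 8.67 at 8 h and was 13.3-fold (95% interval 7.53 to 25.5) above the control at 8 h. In replicate 1 at 4 h Olfr46 was at the 2-fold limit (log2 fold 1.000), on 22 counts beside 13 in the control. Its place in this class, like that of Tph1 with 6 beside 3 counts, rests on few counts.

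Several genes of reactive astrocytes stood above the control. Of 32 listed genes 21 had enough counts, 9 of them raised (Lcn2, Osmr, Aspg, Serpina3n, S100a10, Gfap, Vim, Gbp2 and Hspb1) and 0 lowered, beside 2.4% and 1.54% over all genes. The median log2 fold of the 21 was 0.91. Of the control and 8 h libraries, Lcn2, Aspg, Emp1 and Psmb8 reached 50 counts only in the latter, so they had to lie above the control, and the count and median support nothing by themselves. Other lists hold such genes too, among them Lif and Trh. Gfap, the intermediate filament of astrocytes, stood at 221 CPM in the control, 272 at 1 h, 596 and 510.2 in the 4 h pair and 587 at 8 h. Both 4 h libraries and the 8 h library were above the control and the 1 h library, and the 8 h fold was 2.66-fold (95% interval 2.56 to 2.75). Serpina3n, a secreted serine protease inhibitor, had 28.3 CPM in the control, 29.6 at 1 h, 81.5 and 64.1 in the 4 h pair and 82.0 at 8 h, and lay 2.89-fold (95% interval 2.62 to 3.19) above the control at 8 h. For Osmr, the receptor of oncostatin M, the level was 4.72 CPM in the control, 5.97 at 1 h, 47.3 and 22.9 in the 4 h pair and 24.8 at 8 h. Replicate 1 was higher than the other late libraries, and 8 h was 5.24-fold (95% interval 4.18 to 6.62) above the control. The summed level of 5 astrocyte markers was 3510 CPM in the control and 3508 at 8 h, but Slc1a2 alone made 2615 and 2640 of these. Gja1, another of the 5, had 194.5 CPM in the control and 98.6 at 8 h. Bulk tissue cannot tell apart fewer cells of a kind from less RNA per cell.

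Among 13 measured growth factors, 5 were raised (Lif, Inhba, Fst, Hbegf and Bdnf) and 1 was lowered (Ntf3), beside 2.4% and 1.54% over all genes, with a median log2 fold of 0.93. Bdnf, a neurotrophin, had 43.6 CPM in the control, 208 at 1 h, 754 and 316 in the 4 h pair and 96.7 at 8 h. It peaked at 4 h and was 2.22-fold (95% interval 2.04 to 2.41) above the control at 8 h. Of 20 neuropeptide and prohormone genes, 5 were raised (Trh, Npy, Pdyn, Chga and Scg2; 2.4% over all genes), while the median log2 fold was -0.06. Npy, an inhibitory neuropeptide, had 26.0 CPM in the control, 30.7 at 1 h, 40.3 and 60.7 in the 4 h pair and 88.5 at 8 h. Its level was highest at 8 h, 3.40-fold (95% interval 3.08 to 3.77) above the control. Chga, a granin of dense core vesicles, had 87.7 CPM in the control, 96.0 at 1 h, 148 and 145 in the 4 h pair and 224 at 8 h and was likewise highest at 8 h, at 2.56-fold (95% interval 2.42 to 2.71). Trh, the precursor of thyrotropin-releasing hormone, had 9 counts in the control, 8 at 1 h, 25 and 35 in the 4 h pair and 100 at 8 h, which makes 12.6-fold (95% interval 6.38 to 28.4) at 8 h.

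Other lists held fewer raised genes, and counts of 1 in lists of this size are near the 2.4% raised over all genes. Among 15 antioxidant genes and metallothioneins, Hmox1, Srxn1 and Mt2 were raised, with a median of 0.02 for the list. Hmox1, which breaks down heme, stood at 3.77 CPM in the control, 3.87 at 1 h, 19.6 and 13.9 in the 4 h pair and 11.9 at 8 h, and was 3.15-fold (95% interval 2.41 to 4.16) above the control at 8 h. Of 9 measured cytokine, chemokine and adhesion genes, Socs3 and Icam1 were raised, and of 19 heat shock and chaperone genes Hsph1 and Hspb1. Dusp14 was the 1 raised gene of 14 MAP kinase feedback regulators. Gbp2 was the 1 raised gene of 11 interferon response genes, and Cdkn1a that of 13 cell death and p53 target genes. Cdkn1a was also raised among 19 glucocorticoid target genes, with Angptl4 and Mt2.

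Receptor, channel and metabolic genes are given by their counts, which at the share of 3.94% over all genes would be small in lists of this size. Of 30 measured glutamate receptor genes and of 19 GABA genes, 0 were raised or lowered, with median log2 folds of -0.07 and -0.23. Of 52 potassium channel genes with enough counts, Kcnip3 was raised and Kcng2 lowered (Kcnj16, described below, is not on that list), and of 26 sodium, calcium and HCN channel genes Cacna1g was raised. Cacna1g, a T-type calcium channel, had 48.0 CPM in the control, 48.4 at 1 h, 61.8 and 48.8 in the 4 h pair and 128 at 8 h, so that 8 h stood 2.66-fold (95% interval 2.46 to 2.87) above the control and above every other library. The count was likewise 0 for 28 unfolded protein and integrated stress response genes (median log2 fold 0.09), 18 cholesterol genes (-0.35) and 12 mitochondrial protein genes (-0.09).

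**Figure D4:**
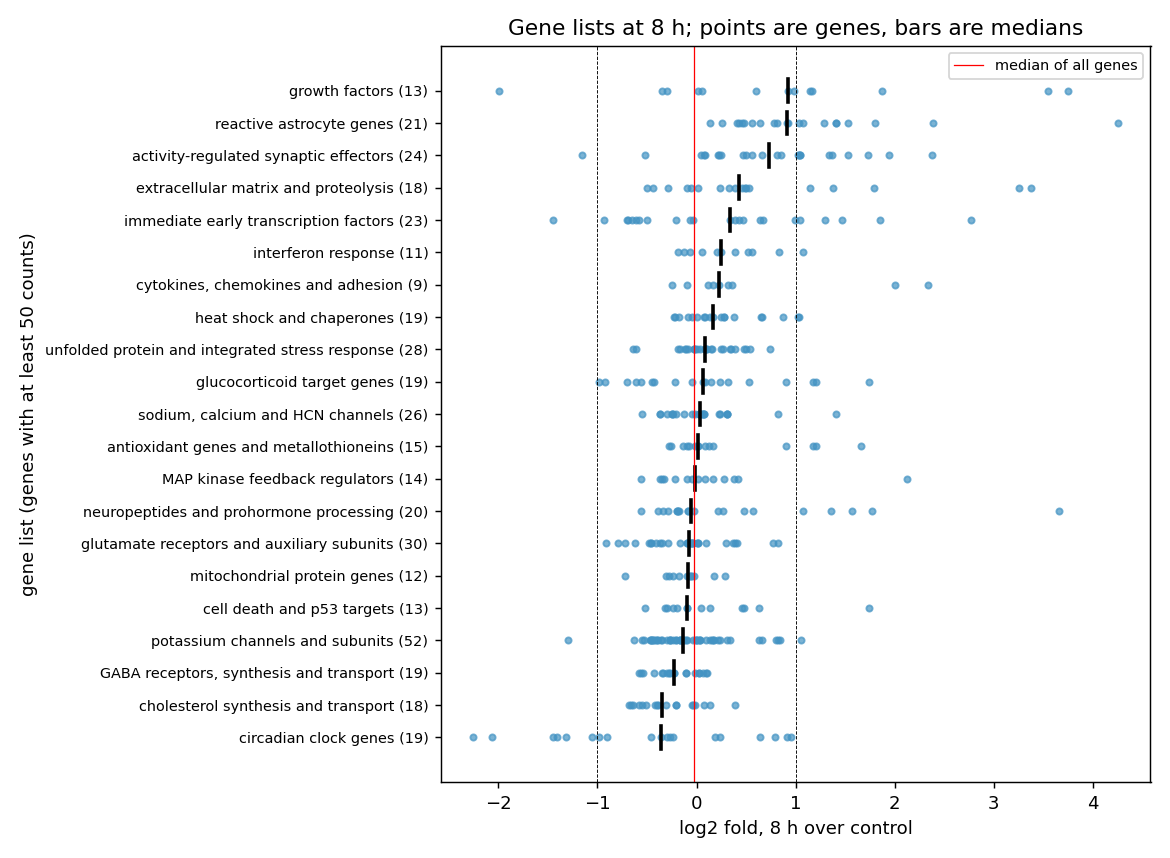
Log2 fold at 8 h of the genes of each list with at least 50 counts (points) and the median of the list (bar), with dashed lines at 2-fold and a line at the median of all genes. Growth factors and reactive astrocyte genes have the highest medians, 0.93 and 0.91, and circadian clock and cholesterol genes the lowest, both -0.35.

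Newly raised genes had median log2 folds of 0.09 at 1 h, 0.17 and 0.20 in the 4 h pair and 1.20 at 8 h over 116 genes, and 14 of them had been at least 2-fold below the control in an earlier library. Pla2g2f, a secreted phospholipase A2, had 2.36 CPM in the control, 2.28 at 1 h, 0.297 and 1.38 in the 4 h pair and 38.5 at 8 h. It was low in both 4 h libraries and 16.3-fold (95% interval 12.1 to 22.4) above the control at 8 h. Adgrf4, an adhesion G protein-coupled receptor, had 1.76 CPM in the control, 2.28 at 1 h, 1.66 and 1.38 in the 4 h pair and 12.1 at 8 h. Its earlier libraries were near the control, and 8 h was 6.88-fold (95% interval 4.79 to 10.1) above it.

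Megf6, a protein with many EGF-like domains, had 3.87 CPM in the control, 3.47 at 1 h, 1.13 and 2.96 in the 4 h pair and 17.1 at 8 h and was 4.42-fold (95% interval 3.43 to 5.76) above the control at 8 h. Mfap4, a protein of elastic fibers, had 1.31 CPM in the control, 0.853 at 1 h, 0.950 and 2.12 in the 4 h pair and 8.10 at 8 h, with 8 h the highest and 6.20-fold (95% interval 4.06 to 9.82) above the control. Olfr539, an odorant receptor gene, had 0.804 CPM in the control, 0.853 at 1 h, 0.238 and 0.264 in the 4 h pair and 8.84 at 8 h. It was 11.0-fold (95% interval 6.56 to 19.7) above the control at 8 h and low in the other libraries. Tgif2, a homeodomain repressor, had 1.36 CPM in the control, 1.25 at 1 h, 1.37 and 0.846 in the 4 h pair and 7.13 at 8 h. The 8 h library was the highest, 5.26-fold (95% interval 3.45 to 8.29) above the control, but 61.6% of the exon length of Tgif2 lies under exons of genes on the opposite strand. How strands were handled in counting is unknown, so reads of both strands may be joined in that count. The same kind of overlap is 5.33% for Olfr539, 4.63% for Mfap4, 3.95% for Krt75, 2.74% for Baiap3 and 1.89% for 4930539E08Rik.

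Part of the newly raised genes are not annotated as protein-coding. Of the 116, 76 were protein-coding and 21 were of the class TEC, transcribed regions whose coding status the annotation has not settled. Of 443 TEC genes with enough counts, 67 were raised at 8 h (15.1%) and 1 was lowered. Of 12454 protein-coding genes, 227 were raised (1.82%) and 189 lowered (1.52%). In the other libraries 53 TEC genes were at least 2-fold above the control at 1 h, and 154 and 36 in replicates 1 and 2 at 4 h. The share of reads on no gene was higher in the libraries with more of these TEC genes, being 24.7% in the control, 29.0% at 1 h, 33.1% and 25.3% in the 4 h pair and 30.9% at 8 h. Its part in the raised TEC genes was not tested.

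Genes lowered since 4 h or earlier included Npy2r, a presynaptic receptor of neuropeptide Y. It had 49.0 CPM in the control, 30.7 at 1 h, 16.3 and 20.0 in the 4 h pair and 13.9 at 8 h. All kainic acid libraries were below the control, and 8 h was 3.52-fold (95% interval 3.06 to 4.07) below it. Plk5, a kinase-related protein of neurons and glia, had 14.2 CPM in the control, 15.8 at 1 h, 2.44 and 4.81 in the 4 h pair and 1.94 at 8 h, with 1 h at the control level and 8 h 7.33-fold (95% interval 5.12 to 10.8) below it. Ntf3, the neurotrophin that acts on TrkC, had 5.22 CPM in the control, 4.15 at 1 h, 0.653 and 1.32 in the 4 h pair and 1.31 at 8 h. The late libraries were low, and 8 h was 3.98-fold (95% interval 2.52 to 6.56) below the control. Gpr12, an orphan receptor, had 21.2 CPM in the control, 15.4 at 1 h, 8.91 and 9.15 in the 4 h pair and 7.99 at 8 h and was 2.65-fold (95% interval 2.19 to 3.24) below the control at 8 h. Nek10, a NIMA-related kinase, had 12.9 CPM in the control, 8.19 at 1 h, 2.26 and 5.55 in the 4 h pair and 3.88 at 8 h, which made 8 h 3.32-fold (95% interval 2.53 to 4.40) lower. 4930539E08Rik, a gene without a common name, had 5.08 CPM in the control, 2.90 at 1 h, 1.31 and 2.33 in the 4 h pair and 1.43 at 8 h and lay 3.56-fold (95% interval 2.28 to 5.76) below the control at 8 h.

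Newly lowered genes had median log2 folds of -0.14 at 1 h, -0.37 and -0.48 in the 4 h pair and -1.19 at 8 h over 128 genes. In an earlier library 8 of them had been at least 2-fold above the control. Kcnj16, an inward rectifier potassium channel of glia and brainstem, had 16.6 CPM in the control, 13.7 at 1 h, 17.1 and 14.7 in the 4 h pair and 4.62 at 8 h. The first 4 libraries were alike and 8 h was 3.59-fold (95% interval 2.81 to 4.63) below the control. Syt10, a synaptotagmin, had 10.4 CPM in the control, 7.91 at 1 h, 11.2 and 8.25 in the 4 h pair and 3.19 at 8 h, again with only 8 h low, by 3.26-fold (95% interval 2.41 to 4.46). Dsc3, a desmosomal cadherin, had 8.04 CPM in the control, 6.09 at 1 h, 5.11 and 4.65 in the 4 h pair and 0.856 at 8 h, and its 8 h level was 9.39-fold (95% interval 5.53 to 17.2) below the control. Baiap3, a regulator of vesicle release, had 7.49 CPM in the control, 5.46 at 1 h, 6.36 and 9.78 in the 4 h pair and 2.05 at 8 h and was 3.65-fold (95% interval 2.52 to 5.40) below the control at 8 h. Plch1, a phospholipase C, stood at 23.7 CPM in the control, 23.8 at 1 h, 20.0 and 13.6 in the 4 h pair and 7.25 at 8 h. At 8 h it was 3.27-fold (95% interval 2.69 to 4.01) below the control.

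Circadian clock genes were the list with the most lowered members. Of 19 genes, 6 were lowered (Dbp, Ciart, Per3, Nr1d1, Nr1d2 and Hlf) and 0 were raised, beside 1.54% and 2.4% over all genes, with a median log2 fold of -0.35. Dbp, a transcription factor driven by the clock, had 38.3 CPM in the control, 37.5 at 1 h, 14.5 and 20.2 in the 4 h pair and 8.04 at 8 h. Its levels were lower in the late libraries and lowest at 8 h, 4.77-fold (95% interval 3.98 to 5.75) below the control. Ciart, a repressor of the clock, had 11.2 CPM in the control, 59.2 at 1 h, 18.5 and 7.62 in the 4 h pair and 2.68 at 8 h. It was above the control at 1 h and 4.18-fold (95% interval 3.04 to 5.85) below it at 8 h. Nr1d2, a nuclear receptor that represses Arntl, had 139.5 CPM in the control, 148 at 1 h, 97.0 and 86.8 in the 4 h pair and 56.1 at 8 h and was 2.49-fold (95% interval 2.31 to 2.68) below the control at 8 h. Arntl itself, a core activator of the clock, had 30.8 CPM in the control, 29.2 at 1 h, 62.7 and 52.4 in the 4 h pair and 53.3 at 8 h, with 8 h 1.73-fold (95% interval 1.56 to 1.92) above the control. The labels place the experiments in the dark phase, at the same times, without the hour at which each library was taken. Sampling time and seizure therefore cannot be told apart for these genes.

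Promoter sequences from RefSeq (GRCm38.p6, 250 bases before to 50 after each start) were searched for TGACGTCA (the CRE, bound by CREB), TGAGTCA (bound by AP-1) and TTCNNGAA (the core of a heat shock element) on both strands. These occur in 1.79%, 5.2% and 8.52% of all 32851 windows. Among the genes with a promoter in the table, TGAGTCA was found for 4 of 30 genes raised at all times, 9 of 55 raised from 4 h, 7 of 62 newly raised, 0 of 20 lowered since 4 h and 2 of 96 newly lowered, beside 431 of 10224 genes with enough counts. TGACGTCA was found for 2, 2, 0, 0 and 4 of the same genes, beside 376 of the 10224, and TTCNNGAA for 4, 6, 4, 1 and 6, beside 819. Promoters were matched for only between 53.4% and 75% of the genes of these classes, fewer than 80%, so the comparison of shares is void and only the sequences below are shown. They were chosen after the values were seen, as examples of genes raised at 8 h whose window holds TGAGTCA before the start. Capitals mark the motif, and TGACTCA is TGAGTCA read on the other strand. Lif (AP-1, chr11:4257318-4257376 on the plus strand) was raised at all times, Srxn1 (AP-1 at 2 places, chr2:152105392-152105515 on the plus strand) and Dgat2l6 (AP-1, chrX:100524652-100524718 on the plus strand) from 4 h, and Adgrf4 (AP-1, chr17:42692372-42692438 on the minus strand) newly.
Lif: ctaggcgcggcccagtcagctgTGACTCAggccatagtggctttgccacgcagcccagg
Srxn1: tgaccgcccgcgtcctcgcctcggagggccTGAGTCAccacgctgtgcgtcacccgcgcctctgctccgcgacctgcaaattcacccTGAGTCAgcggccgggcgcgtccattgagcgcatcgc
Dgat2l6: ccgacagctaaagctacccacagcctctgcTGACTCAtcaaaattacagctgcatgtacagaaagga
Adgrf4: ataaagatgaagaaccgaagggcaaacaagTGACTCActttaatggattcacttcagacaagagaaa
A match says only that these letters stand in this window. Srxn1, which repairs oxidized peroxiredoxins, had 67.2 CPM in the control, 91.8 at 1 h, 720.5 and 419 in the 4 h pair and 155 at 8 h. It was highest in the 4 h pair and 2.30-fold (95% interval 2.15 to 2.46) above the control at 8 h.

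Markers of hippocampal cell types were present in both libraries. The summed level of 6 markers of neurons was 6675 CPM in the control and 6379 at 8 h, and that of 6 markers of dentate granule cells was 327 and 321. Of these dentate markers 1 was lowered, while Prox1, the most abundant, had 59.99 CPM in the control and 77.07 at 8 h. CA1 markers were at 404 and 318, CA3 markers at 113 and 115, interneurons at 490.2 and 499, microglia at 366 and 364, and oligodendrocytes at 3341 and 3303.

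RNA of choroid plexus, which lies next to the hippocampus, was present in both libraries. The 12 markers summed to 4146 CPM in the control, 1754 at 1 h, 36.2 and 4458 in the 4 h pair and 3239 at 8 h, and none was raised or lowered at 8 h. Ttr, the most abundant, had 3747 CPM in the control, 1573 at 1 h, 16.3 and 3971 in the 4 h pair and 2884 at 8 h. Replicate 1 at 4 h was nearly without it, the 1 h library had less than the control, and the other 3 libraries were high. Red blood cell markers summed to 135.2 CPM in the control and 182 at 8 h, led by Hbb-bs. Of 7 neutrophil markers, Ly6g, Camp, Retnlg and Cxcr2 had at most 3 counts in the control or at 8 h, and the list summed to 1.46 and 1.48 CPM. Monocyte and macrophage markers were at 19.95 and 22.9 CPM. Thalamus markers were at 62.4 CPM in the control, 73.2 at 1 h, 312 and 126 in the 4 h pair and 55.1 at 8 h. The 4 h pair, which sets the classes and the spread, was high and replicate 1 the highest. In the control and at 8 h, markers of other brain regions were at 83.4 and 64.5 CPM for cortex, 129 and 129.7 for striatum and 0.402 and 0.685 for hypothalamus, of which Oxt, Hcrt and Pmch had at most 3 counts. Among the striatum markers 1 was lowered at 8 h. The part of these cells and regions in the folds above was not tested.

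**Figure D5:**
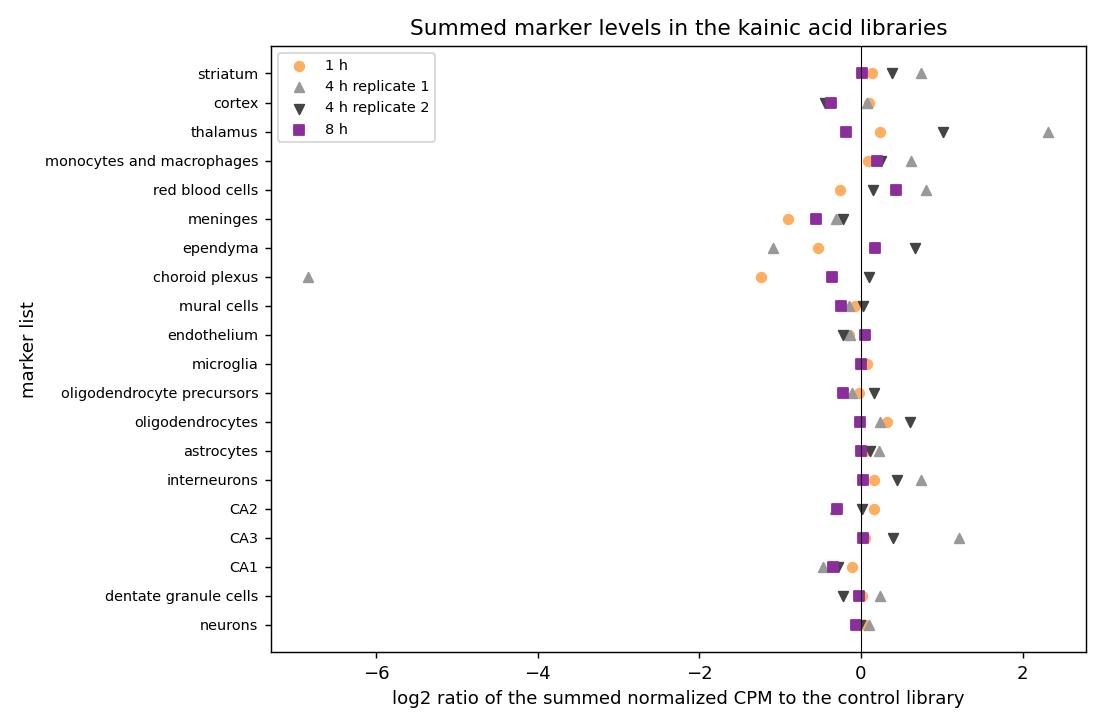
Log2 ratio of the summed marker level of each kainic acid library to the control, for marker lists with at least 10 CPM in the control. As plain ratios to the control, the 8 h levels run from 0.678 for meninges to 1.35 for red blood cells, while choroid plexus markers are almost absent from replicate 1 at 4 h (36.2 CPM against 4146 in the control).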

How the data were processed

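Total RNA of hippocampus was made into stranded libraries. Per the submitters' processing notes, STAR 2.5.1b, HTSeq and GRCm38.p4 were used, and the authors deposited whole-number counts per gene without normalization. The summary lines were dropped: no feature, ambiguous and not unique made up 30.9%, 1.41% and 10.4% of all deposited counts at 8 h, and 24.7%, 1.51% and 11.6% in the control. Neither the annotation release nor the strand setting of HTSeq is known. Of 55385 identifiers, 55144 matched GENCODE M21, which gave gene classes and positions.

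Counts were normalized with TMM (factors 1.04 for the control and 1.06 at 8 h) in edgeR 4.0.16 (R 4.3.3), with DESeq2 1.42.0 and limma 3.58.1 as alternatives. Folds, classes and intervals were computed in Python 3.11.15 with scipy 1.17.1, and figures drawn with matplotlib 3.10.9. Both steps were run on simulated data. For the classes that simulation held counting error only, with 4-fold changes in genes with at least 200 control counts. It therefore says nothing about classes near 50 counts or 2-fold, or about spread between libraries. In each class, up to 6 protein-coding genes with the largest fold were named, with at least 100 counts in the control or at 8 h and a fold above the pair's difference; listed genes serve as examples. A gene the annotation lacks was taken by its symbol. Members and lists were chosen with earlier results of these data known.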

Additional observations from a re-analysis of the deposited data

How the results depend on the processing

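Another normalization, by median of ratios or library size alone, kept the counts of raised and lowered genes within 1.5 times. The log2 folds of all 30 named genes kept their sign in 60 such recomputations. That outcome was set beforehand, since such a change shifts the log2 folds of all genes alike. The median log2 fold moved by at most 0.018. With at least 20 counts, 693 genes were raised and 381 lowered, and the classes held 102 genes raised at all times, 154 raised from 4 h, 257 newly raised, 59 lowered since 4 h and 205 newly lowered. With at least 200 counts these numbers were 138, 87, 19, 42, 49, 9 and 62. A limit of 1.5-fold at the earlier times left 75 newly raised and 55 newly lowered genes. Among protein-coding genes only, chosen after seeing the data, 76 were newly raised.

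Leaving out either replicate at 4 h gave between 49 and 59 genes lowered since 4 h, since 1 library then decides the class. For 8 h against control, DESeq2 called 33 genes, library size alone 22 and no filter on low counts 279, while limma-voom, median-of-ratios factors and robust estimation called 0, as edgeR did. For 8 h against 4 h, edgeR called 0 (1726 at an unadjusted p under 0.05), DESeq2 135, library size alone 120 and no filter 957, and limma-voom, median-of-ratios factors and robust estimation 0. The cause was not tested. Leaving out a 4 h library leaves no residual degree of freedom, so no test was run. With 1 library a side, depth limits folds of genes near 50 counts most. No paired analysis was possible because the control and 8 h groups have 1 library each.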
